A study of Mus musculus with 6 samples.

Results

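The MHC class II genes of mouse leukaemia cells are described here across 6 RNA libraries, 3 labelled SLC6A6 KO (KO1, KO2 and KO3) and 3 labelled SLC6A6 WT (WT1, WT2 and WT3). The 10 genes were taken by symbol from the table of counts per gene: H2-Aa, H2-Ab1, H2-Eb1, Cd74, Ciita, H2-DMa, H2-DMb1, H2-DMb2, H2-Oa and H2-Ob. All 10 of them, among 53819 genes in the table, also passed the filter on low counts, which left 15232 genes. In both groups the mice had been transplanted with primary leukaemia cells that carry BCR-ABL and NUP98-HOXA9, a pair of fusion genes that together model chronic myeloid leukaemia in blast crisis, and the leukaemia cells were sorted from the spleen. The groups thus share the fusion genes, the host organ and the sort, and differ by label in Slc6a6, the gene of the taurine transporter. The labels give no allele, no strain or age of the mice and no sorting marker, and nothing in them ties a library to a mouse or a leukaemia of its own. P-values below therefore measure the spread among these 6 libraries alone, which may be technical.

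MHC class II molecules are cell-surface heterodimers that show peptides from the endosomal route to CD4+ T cells. In the mouse the I-A molecule joins the chains encoded by H2-Aa and H2-Ab1, and the I-E molecule joins those of H2-Ea and H2-Eb1. The invariant chain, Cd74, occupies the new heterodimer and guides it to endosomes, H2-DM (H2-DMa with H2-DMb1 or H2-DMb2) catalyses the exchange of its remnant for peptide, and H2-DO (H2-Oa with H2-Ob) restrains H2-DM. CIITA, the product of Ciita, is the coactivator that switches these genes on by docking on factors bound to a set of promoter elements called the S, X and Y boxes. B cells, dendritic cells and activated macrophages are the classical class II positive cells, and some myeloid leukaemias express class II as well.

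Totals were 42829294 to 44902511 counts in the KO libraries and 44950191 to 49537098 counts in the WT libraries, and levels below are in CPM, a gene's counts scaled to a fixed library total after TMM normalization. Slc6a6 had 125, 132 and 133 CPM in the KO libraries against 151, 145 and 145 CPM in the WT libraries, so its level does not check the genotype and the groups are named by their labels. The labels also run along a line of sex: 4 Y-linked genes together had 10274 to 11236 counts in the KO libraries and 0 to 1 in the WT libraries, so genotype label and sex of the cells cannot be told apart in any difference below. Of the leukaemia markers, Hoxa9 averaged 102 ± 5.63 CPM in KO and 134 ± 5.73 CPM in WT, and Kit 65.1 ± 17.8 and 17.9 ± 7.87 CPM (SD, n = 3 each). Cd34 went the other way from Kit, at 1.61 ± 0.773 CPM in KO and 8.37 ± 7.44 CPM in WT, below in every KO library. Of the 12 leukaemia and myeloid markers listed, 5 were higher and 7 lower in KO. The edgeR test used below called 1 of them higher (Kit) and 0 lower, where it called 1.64% and 1.92% of all tested genes. Of the myeloid markers, Spi1 was at 38.9 to 60.1 CPM in KO and 56.5 to 97.4 CPM in WT, Mpo at 0 to 21.8 CPM in KO and 8.27 to 53.1 CPM in WT, and Itgam and Cebpa were under 2 CPM in every library.

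Promoter sequence was taken for 7 of the 10 genes (all but H2-Ab1, Cd74 and Ciita) from the RefSeq windows of build GRCm38.p6, which run from 250 bases before to 50 bases after a start site, in 8 windows since H2-DMa has 2. CIITA acts through promoter elements, and the genes differ in their values below. Stretches of 60 bases around the Y box core ATTGG are therefore shown for 6 of the 7 genes. They lie at chr17:34287858-34287917 (minus strand) for H2-Aa and, on the plus strand, at chr17:34305762-34305821 for H2-Eb1, chr17:34153084-34153143 for H2-DMb1, chr17:34145113-34145172 for H2-DMb2, chr17:34092290-34092349 for H2-Oa and chr17:34238802-34238861 for H2-Ob. Capitals mark matches, on either strand, to the Y core ATTGG, the X box core ACNGATG and the core TGACG of the neighbouring X2 box.
H2-Aa: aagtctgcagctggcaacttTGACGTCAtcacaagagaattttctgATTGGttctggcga
H2-Eb1: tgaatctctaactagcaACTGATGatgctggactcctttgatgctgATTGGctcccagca
H2-DMb1: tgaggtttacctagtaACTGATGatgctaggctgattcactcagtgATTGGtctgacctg
H2-DMb2: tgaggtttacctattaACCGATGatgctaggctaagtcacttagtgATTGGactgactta
H2-Oa: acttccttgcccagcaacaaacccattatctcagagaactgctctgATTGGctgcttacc
H2-Ob: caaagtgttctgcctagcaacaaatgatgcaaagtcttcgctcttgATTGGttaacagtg

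In these 6 genes the ATTGG shown began 43 to 90 bases before the start site, and H2-Eb1 had a further match on the opposite strand nearer to it. The ATTGG of H2-DMa, which is not shown, began 198 bases before the start site of its window, and H2-DMa had no match to the X core. An X core followed by a Y core on the same strand, with 10 to 50 bases between them, was found in H2-Eb1, H2-DMb1 and H2-DMb2, that is in 3 of the 8 windows, against 0.301% of the 32851 windows in the RefSeq table. ATTGG alone was in 7 of the 8 windows and in 37.4% of all windows, and ACNGATG in 5 of the 8 and in 9.85% of all. TGACG was found in H2-Aa alone of the 7 genes, where it reads on both strands, and in 20.8% of all windows. H2-Aa and H2-Eb1 therefore share the Y core with the DM and DO genes, and H2-Eb1 shares the ordered pair with H2-DMb1 and H2-DMb2. A match describes letters and not a bound site.

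The invariant chain gene and 2 class II chain genes were higher in the libraries labelled KO, while the DM and DO genes were at overlapping levels. Cd74 rose 8.13-fold, H2-Aa 9.16-fold and H2-Eb1 3.70-fold. Of the 10 genes 3 passed edgeR's quasi-likelihood test upwards (Benjamini-Hochberg adjusted p below 0.05), 0 passed it downwards and 7 did not pass, where 1.64% of all tested genes were called higher, 1.92% lower and 3.56% either way. At an unadjusted p below 0.05, 5 of the 10 were higher and 0 lower, beside 11.6% and 10.4% of all tested genes. DESeq2 called 5 higher and 0 lower (6.51% and 5.24% of all), and limma-voom 3 and 0 (1.34% and 1.62% of all). In 5 of the 10, every KO library lay above every WT library, which held for 13.6% of all tested genes, and in 0 every KO library lay below (14.4% of all). The median log2 fold change was 0.43 over the 10 genes and 0.01 over all genes tested. In RNA from many cells, more cells that express a gene and more of its RNA per cell cannot be told apart.

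**Figure D1:**
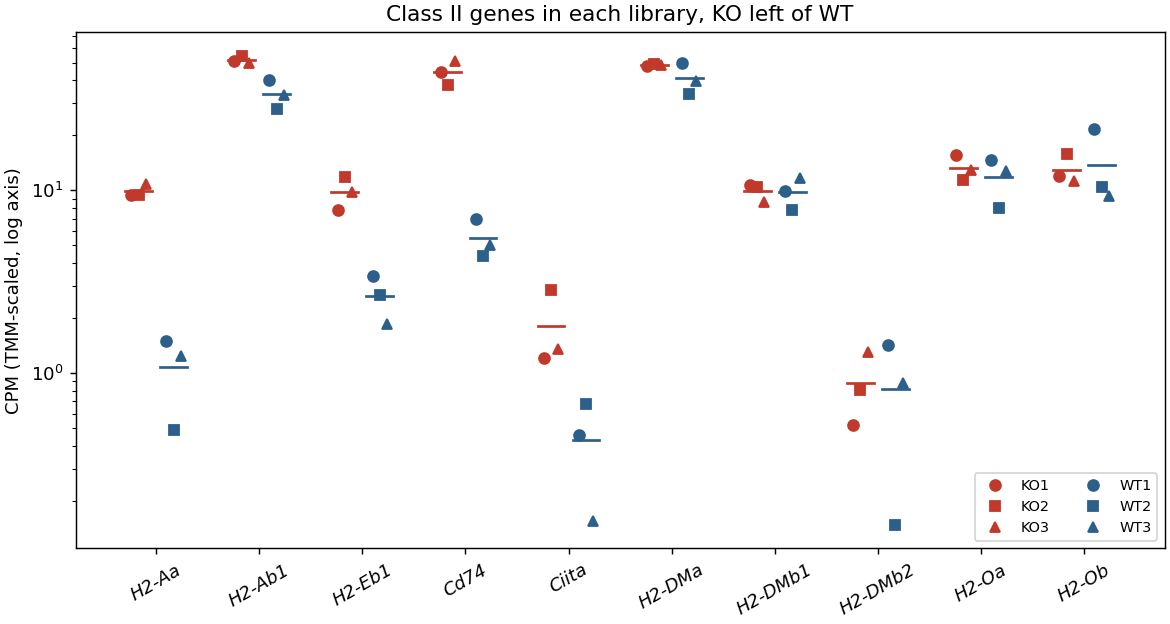
CPM of each class II gene in each library (log axis), with the 3 KO libraries left of the 3 WT libraries and a horizontal bar at each group's mean. H2-Aa, H2-Ab1, H2-Eb1, Cd74 and Ciita show no overlap between the groups, and the 5 genes of DM and DO overlap.

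Cd74, the invariant chain, reached 44.7 CPM in KO1, 37.6 CPM in KO2 and 50.9 CPM in KO3, against 6.95, 4.38 and 5.04 CPM in WT1, WT2 and WT3. The lowest KO library thus lay far above the highest WT library, and the spread within each group was small (highest over lowest 1.36 in KO and 1.59 in WT). On the log2 scale the change was 3.02 ± 0.22 (SE, n = 3 against 3, edgeR adjusted p = 0.00231), with a 95% interval from 2.50 to 3.55. Cd74 stayed past the test in 6 of 6 fits without 1 library (adjusted p at most 0.0328).

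H2-Aa, the alpha chain of I-A, had 9.45, 9.41 and 10.8 CPM in the KO libraries, against 1.51, 0.485 and 1.24 CPM in the WT libraries. The KO libraries were close together, and WT2 was the lowest of all 6. The log2 fold change was 3.20 ± 0.43 (SE, edgeR adjusted p = 0.0200). Without KO1, KO3 or WT3 the adjusted p was 0.0631, 0.0610 and 0.0935, at log2 fold changes of 3.23, 3.12 and 3.30.

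H2-Eb1, the beta chain of I-E, had 7.76, 11.8 and 9.79 CPM in the KO libraries, against 3.41, 2.68 and 1.86 CPM in the WT libraries. Every KO value exceeded every WT value, and KO2 was the highest. The log2 fold change was 1.89 ± 0.31 (SE, edgeR adjusted p = 0.0297), and of the 6 fits without 1 library only the fit without WT1 kept the call (adjusted p = 0.0471, against 0.0521 to 0.114 without KO1, KO2, KO3, WT2 or WT3). Its partner in I-E, the alpha chain gene H2-Ea, had 0 counts in all 6 libraries, which allows up to 0.0594 to 0.0727 CPM in a library. H2-Ea is known as a gene without a transcript in several mouse strains, C57BL/6 among them. H2-Eb2, a further beta chain gene, had 1 to 3 counts in the KO libraries and 0 to 12 in the WT libraries and was not tested.

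H2-Ab1, the beta chain of I-A and the partner of H2-Aa, was abundant in both groups, with 51.2, 54.6 and 50.1 CPM in the KO libraries against 40.0, 27.9 and 33.1 CPM in the WT libraries. The groups did not overlap, but the ratio was only 1.54-fold and the gene did not pass the test (log2 fold change 0.63 ± 0.15, SE, edgeR adjusted p = 0.0655). Its 95% interval ran from 0.28 to 0.97 on the log2 scale, which lies wholly below the interval of H2-Aa, from 2.17 to 4.22.

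Ciita, the coactivator, was the rarest of the 10 per length of transcript, with 54, 130 and 56 counts in KO1, KO2 and KO3, against 23, 32 and 7 counts in WT1, WT2 and WT3. In CPM these were 1.22, 2.83 and 1.36 in KO and 0.456, 0.674 and 0.155 in WT, so the groups did not overlap while KO2 stood above the other KO libraries. The fitted ratio of 4.18-fold did not pass the test (log2 fold change 2.06 ± 0.65, SE, edgeR adjusted p = 0.127, 95% interval 0.54 to 3.59). KO2, the library with the most Ciita, also had the most H2-Eb1 and H2-Ab1 of the KO libraries, but the least Cd74 and H2-Aa. Annotation of GENCODE M21 places Ciita over Dexi on the opposite strand. Dexi had 477 to 601 counts in KO and 512 to 634 in WT, and since the library chemistry does not mark strand, reads in the shared stretch cannot be told apart.

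**Figure D2:**
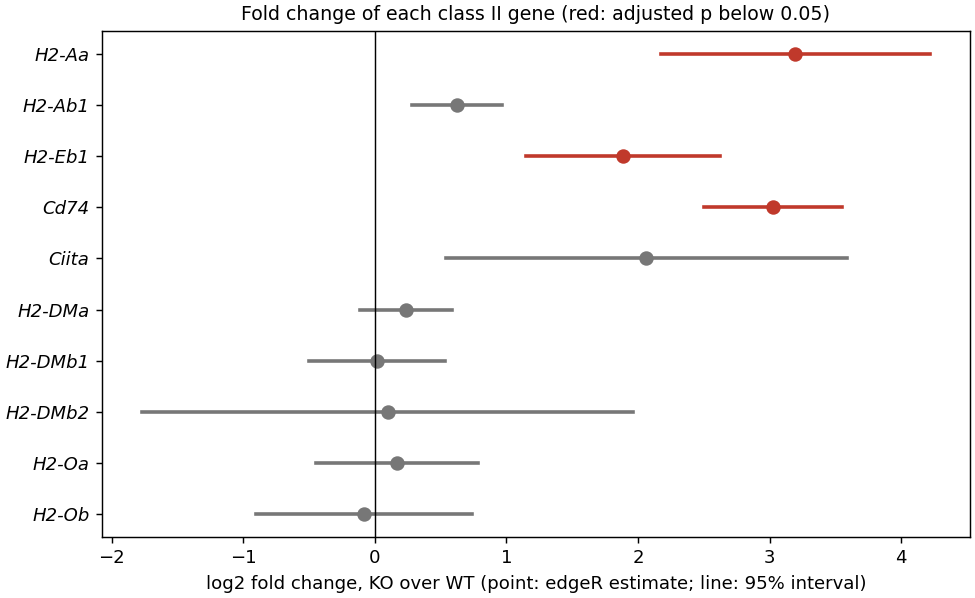
Log2 fold change of each class II gene, KO over WT, with the edgeR estimate as a point and its 95% interval as a line. Red marks the 3 genes past the test (H2-Aa, H2-Eb1 and Cd74), and the intervals of H2-DMa, H2-DMb1, H2-DMb2, H2-Oa and H2-Ob all cross 0.

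The genes of the peptide editor H2-DM did not pass the test. H2-DMa, the alpha chain, had 47.9, 48.9 and 48.8 CPM in the KO libraries and 49.7, 33.9 and 39.9 CPM in the WT libraries. WT1 lay above all 3 KO libraries, and the interval of the log2 fold change ran from -0.11 to 0.59, which lies wholly below that of Cd74. H2-DMb1, the main beta chain, had 10.7, 10.4 and 8.68 CPM in KO and 9.91, 7.78 and 11.8 CPM in WT, with an interval from -0.50 to 0.53. H2-DMb2, a near-identical beta chain gene that can share reads with H2-DMb1, was rare, at 0.518, 0.806 and 1.31 CPM in KO and 1.43, 0.148 and 0.884 CPM in WT. Both its highest and its lowest value were in WT libraries, and its interval, from -1.77 to 1.97, is the widest of the 10. GENCODE M21 has 3094 bases of H2-DMa overlapping Brd2 on the opposite strand, and Brd2 had 8378 to 8737 counts in KO and 7397 to 8501 in WT, so reads there cannot be told apart.

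H2-DO, the restrainer of H2-DM, gave a like picture. H2-Oa had 15.5, 11.4 and 12.9 CPM in the KO libraries and 14.7, 8.01 and 12.8 CPM in the WT libraries. H2-Ob had 11.9, 15.8 and 11.2 CPM in KO and 21.6, 10.4 and 9.31 CPM in WT. Within both genes WT1 was the highest WT library and the groups overlapped. The intervals of their log2 fold changes were -0.45 to 0.78 and -0.90 to 0.74, with edgeR adjusted p-values of 0.763 and 0.923.

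Ratios between genes of 1 library do not depend on how libraries are scaled, and 9 were compared by an exact two-sided permutation test, whose smallest p with 3 against 3 is 0.10 (0.225 after Benjamini-Hochberg adjustment over the 9), so none could pass a threshold of 0.05. H2-Ab1 had 5.42, 5.80 and 4.63 reads for each read of H2-Aa in KO1, KO2 and KO3, against 26.4, 56.4 and 26.5 in WT1, WT2 and WT3. The chains of I-A were thus closer to each other in every KO library, with the H2-Aa to H2-Ab1 ratio 6.48 times that in WT (exact permutation p = 0.10, adjusted p = 0.225). The ratio of Cd74 to H2-Ab1 was 0.873, 0.688 and 1.02 in the KO libraries and 0.174, 0.157 and 0.152 in the WT libraries. It varied less among the WT than among the KO libraries and was 5.27 times as high in KO (log2 difference 2.40, exact permutation p = 0.10, adjusted p = 0.225). The ratio of H2-Eb1 to H2-Ab1 was 0.152, 0.217 and 0.196 in KO and 0.0854, 0.0961 and 0.0564 in WT, again without overlap (2.41 times as high).

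Ratios inside the accessory pairs overlapped between the groups. H2-DMa to H2-DMb1 was 4.49, 4.69 and 5.61 in the KO libraries and 5.01, 4.35 and 3.39 in the WT libraries. H2-Oa to H2-Ob was 1.30, 0.721 and 1.15 in KO and 0.681, 0.769 and 1.37 in WT. H2-DMa to H2-Ab1 was the sole ratio with every KO library below every WT library, at 0.935, 0.896 and 0.974 in KO and 1.24, 1.21 and 1.21 in WT (log2 difference -0.38, exact permutation p = 0.10, adjusted p = 0.225). H2-DMb2 to H2-DMb1, H2-Ob to H2-Ab1 and Ciita to H2-Ab1 overlapped, with exact permutation p-values of 0.60, 0.20 and 0.20.

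**Figure D3:**
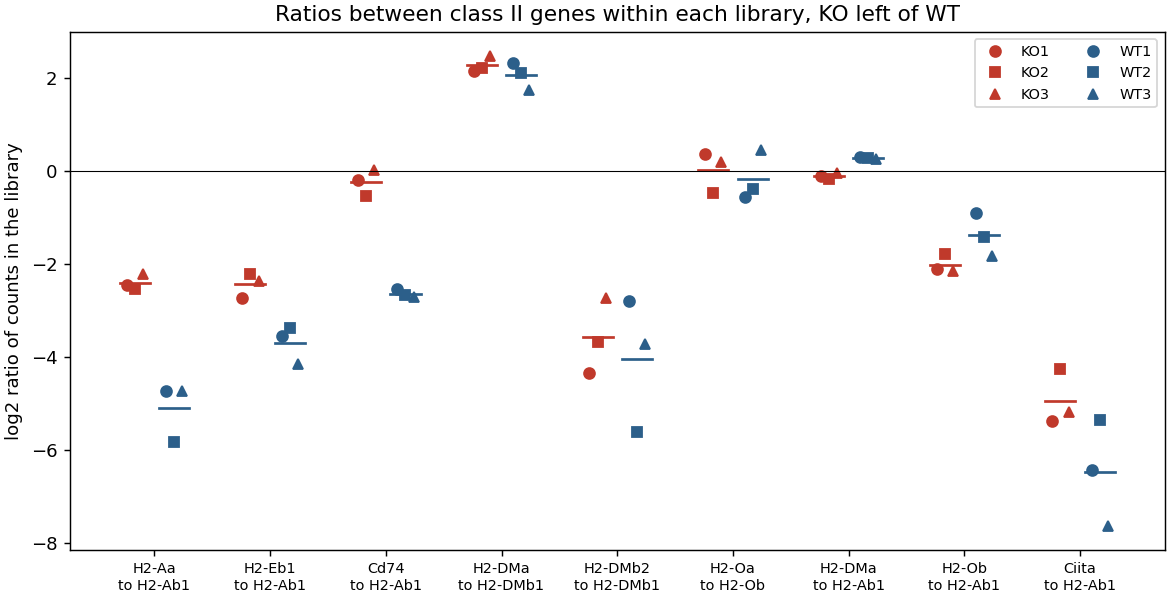
Log2 ratio of counts between pairs of class II genes in each library (0.5 added to each count), KO left of WT, with a bar at each group's mean. H2-Aa, H2-Eb1 and Cd74 are higher against H2-Ab1 in all 3 KO libraries, and the pairs within DM and within DO overlap.

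Divided by the exonic length of each gene in GENCODE M21 (which annotation the counts rest on is not given in the sources here), levels can be set against each other between genes. In the KO libraries Cd74 came first with 26.4 ± 3.98 CPM per kb (SD, n = 3), before H2-Ab1 (20.2 ± 0.920), H2-DMa (14.1 ± 0.161), H2-Oa (9.44 ± 1.49), H2-DMb1 (5.90 ± 0.646), H2-Eb1 (5.04 ± 1.04), H2-Aa (2.60 ± 0.210), H2-Ob (2.42 ± 0.456), H2-DMb2 (0.502 ± 0.229) and Ciita (0.189 ± 0.0938). Of neighbours in this order, H2-DMb1 and H2-Eb1 overlapped over the libraries, as did H2-Aa and H2-Ob, and H2-DMb2 and Ciita just touched. In the WT libraries H2-Ab1 came first with 13.1 ± 2.36 CPM per kb, before H2-DMa (11.9 ± 2.32), H2-Oa (8.40 ± 2.45), H2-DMb1 (5.84 ± 1.19), Cd74 (3.25 ± 0.796), H2-Ob (2.56 ± 1.26), H2-Eb1 (1.36 ± 0.399), H2-DMb2 (0.469 ± 0.367), H2-Aa (0.283 ± 0.139) and Ciita (0.0449 ± 0.0274). The WT neighbours that did not overlap were H2-DMb1 and Cd74, H2-Eb1 and H2-DMb2, and H2-Aa and Ciita. Cd74 was therefore first in KO and 5th in WT, below H2-DMa, H2-Oa and H2-DMb1 but above H2-Ob and H2-DMb2. H2-Aa was 7th in KO and 9th in WT. Lengths count all annotated exons of a gene together, and the order of genes depends on them.

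**Figure D4:**
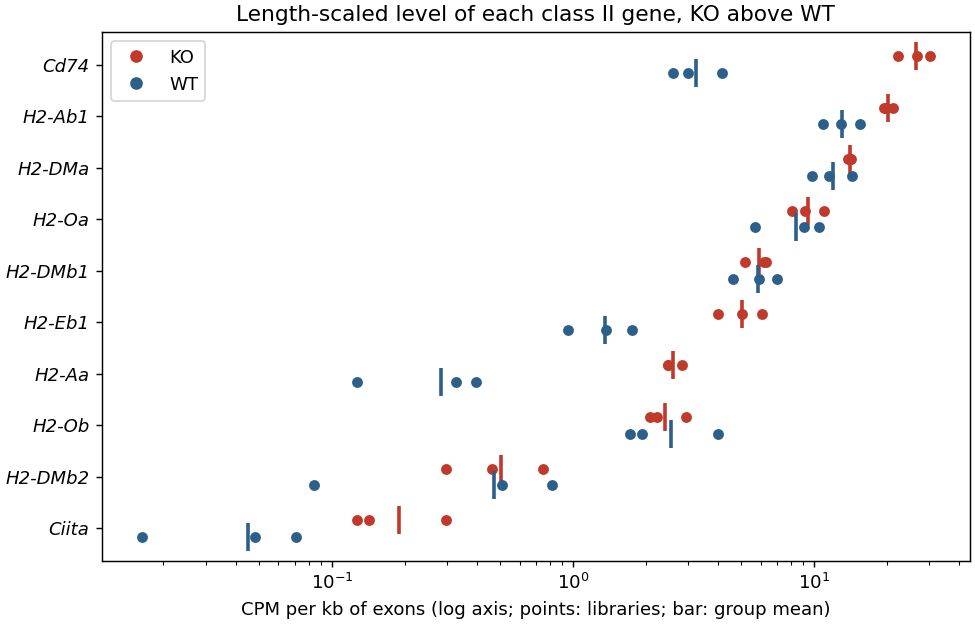
CPM per kb of exons (log axis) of each class II gene, with KO libraries above WT libraries, a point per library and a vertical bar at each group's mean. The groups do not overlap for Cd74, H2-Ab1, H2-Eb1, H2-Aa and Ciita, and they overlap for H2-DMa, H2-DMb1, H2-DMb2, H2-Oa and H2-Ob.

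The summed level of the 10 genes was 201, 204 and 206 CPM in the KO libraries and 150, 96.4 and 116 CPM in the WT libraries. Cd74 made up 21.8 ± 3.17% of that sum in KO and 4.51 ± 0.154% in WT (SD, n = 3 each). H2-Ab1 held 25.5 ± 1.26% in KO and 28.1 ± 1.19% in WT, and H2-DMa 23.9 ± 0.177% in KO and 34.3 ± 0.981% in WT. The sum thus varied little among the KO libraries and was highest in WT1 among the WT libraries.

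Genes outside the 10 were ranked by how closely their profile followed that of Cd74, as the mean absolute difference of centred log2 CPM over the 6 libraries. None of the 9838 genes with a mean of at least 5 CPM was closer to Cd74 than H2-Aa was (0.26 on the log2 scale). H2-Eb1 stood at 0.57 with 27 genes closer, Ciita at 0.81 with 102 closer and H2-Ab1 at 1.20 with 669 closer, and the DM and DO genes lay between 1.35 and 1.51. The closest genes outside the family were St8sia6, a sialyltransferase (0.28), Plaat3, a phospholipase and acyltransferase (0.29), Ddx4, an RNA helicase of germ cells (0.29), Sort1, the sorting receptor sortilin (0.30), and Gm2a, the lysosomal GM2 activator protein (0.33). Gm2a had 109, 132 and 86.1 CPM in the KO libraries and 18.5, 13.2 and 20.6 CPM in the WT libraries. These genes were picked for their likeness, which is given as a description.

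Factors that bind class II promoters or induce Ciita did not pass the test in either direction. Of 16 such genes 15 were tested and 0 were called by edgeR or limma-voom, against 4 higher and 1 lower at an unadjusted p below 0.05 (11.6% and 10.4% of all genes) and 3 higher by DESeq2 (6.51% of all), and the median of their log2 fold changes was 0.20, beside 0.01 for all genes. Rfx5, whose product binds the X box, was at 21.6, 22.6 and 18.2 CPM in the KO libraries and 20.4, 12.4 and 14.9 CPM in the WT libraries. Its partner genes Rfxank and Rfxap, and Nfya and Nfyb of the Y box factor, had log2 fold changes between -0.15 and 0.04, and Nfyc 0.20. Every KO library lay above every WT library in 5 of the 16 (13.6% of all tested genes) and below in 0. Irf1 was among the 5, at 34.0, 32.3 and 27.3 CPM in KO and 22.0, 8.62 and 13.2 CPM in WT (edgeR adjusted p = 0.113). Irf8, a transcription factor of dendritic cells, macrophages and B cells, was at 5.36, 3.14 and 4.87 CPM in KO and 1.25, 0.590 and 0.177 CPM in WT. The groups did not overlap (log2 fold change 2.72 ± 0.67, SE, edgeR adjusted p = 0.0746). Kat2b, an acetyltransferase that modifies CIITA, was at 21.4 ± 5.81 CPM in KO and 10.6 ± 1.13 CPM in WT (SD, n = 3 each, edgeR adjusted p = 0.0661).

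Of 5 genes listed as repressors of Ciita or class II, 3 were tested and 0 called by edgeR, DESeq2 or limma-voom, with 0 at an unadjusted p below 0.05. Ezh2 was at 174 ± 11.3 CPM in KO and 153 ± 15.4 CPM in WT, and Ptprs at 112 ± 3.34 and 102 ± 9.55 CPM (SD, n = 3 each). Prdm1, the repressor of Ciita in plasma cells, had counts in KO1 alone.

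Of 14 genes of the class II processing route 13 were tested and 0 were called by edgeR or limma-voom, against 6 higher and 1 lower at an unadjusted p below 0.05 (11.6% and 10.4% of all genes) and 5 higher by DESeq2 (6.51% of all). Their median log2 fold change was 0.66. Ctss, the cathepsin that trims the invariant chain, was at 16.2, 3.16 and 4.87 CPM in the KO libraries and 0.832, 0.969 and 1.13 CPM in the WT libraries. The groups did not overlap and KO1 stood far above the other KO libraries (log2 fold change 3.04 ± 0.65, SE, edgeR adjusted p = 0.0546). Ctsh, a cathepsin with aminopeptidase activity, was at 2.80 ± 1.35 CPM in KO and 0.323 ± 0.208 CPM in WT (SD, n = 3 each, edgeR adjusted p = 0.0607). Ifi30, the thiol reductase GILT of the same compartment, overlapped, at 19.9, 14.8 and 26.8 CPM in KO and 13.8, 36.3 and 24.3 CPM in WT.

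Interferon gamma is the classical inducer of Ciita outside B and dendritic cells. Of 14 genes of its receptor and response 13 were tested, 2 rose, 1 fell and 10 did not pass edgeR's test. That test called 1.64% of all tested genes higher and 1.92% lower. The log2 fold changes of the 13 had their median at 0.09. Unadjusted p was below 0.05 for 4 higher and 1 lower (11.6% and 10.4% of all). By DESeq2 3 were higher and 1 lower (6.51% and 5.24% of all), and by limma-voom 1 and 1 (1.34% and 1.62% of all). Jak2, the kinase of the interferon gamma receptor, rose (edgeR adjusted p = 0.0364). It was at 114 ± 7.86 CPM in KO, against 79.3 ± 5.89 CPM in WT (SD, n = 3 each). Gbp4, an induced GTPase, rose to 6.53, 1.33 and 1.09 CPM in KO1, KO2 and KO3, with 0, 0 and 0.0663 CPM in WT1, WT2 and WT3 (edgeR adjusted p = 0.0419). Socs1, the feedback inhibitor that interferon gamma also induces, fell to 28.9 ± 4.70 CPM in KO, against 58.3 ± 11.2 CPM in WT (SD, n = 3 each, edgeR adjusted p = 0.0370). The targets Gbp2, Irgm1, Iigp1 and Cxcl10 overlapped between the groups. Igtp, a GTPase of the same response, was at 112, 43.4 and 62.3 CPM in KO and 38.1, 43.1 and 40.8 CPM in WT and did not pass. The 2 rises were lost in each fit without 1 library except that without KO2, and Socs1 kept its call only without WT2 (edgeR adjusted p = 0.0477).

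Some markers of cells that normally carry class II also passed the test. The 15 B cell and plasma cell markers summed to 66.4 to 172 CPM in KO and 6.22 to 44.5 CPM in WT, and Pax5 and Fcer2a had 0 counts in all 3 WT libraries. Of 10 tested 3 rose and 7 did not pass, where 1.64% of all tested genes were called higher. The rises numbered 0 without KO1, KO3 or WT3, and 1 without WT1. An unadjusted p below 0.05 was found for 9 higher and 0 lower (11.6% and 10.4% of all). DESeq2 called 5 higher (6.51% of all). Cd79b, of the B cell receptor, was at 2.90 ± 0.770 CPM in KO and 0.564 ± 0.0608 CPM in WT (SD, n = 3 each, edgeR adjusted p = 0.0268). The highest sum was in KO3, and WT2 had 44.5 CPM, against 6.22 CPM in WT1 and 6.96 CPM in WT3. In each library the sum was mostly Ighm and Igkc. Ighm was at 48.5, 27.2 and 81.3 CPM in KO and 2.46, 26.0 and 2.56 CPM in WT. Igkc was at 47.1, 24.5 and 65.2 CPM in KO and 1.88, 12.4 and 2.59 CPM in WT. Without WT2 the log2 fold changes were 2.88 for Cd74 and 2.84 for H2-Aa, and with all libraries 3.02 and 3.20. The B cell sums still differed between the groups without WT2, so that fit cannot show the part of B cells.

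The 17 macrophage and monocyte markers summed to 240, 144 and 150 CPM in KO1, KO2 and KO3, against 119, 73.9 and 59.2 CPM in WT1, WT2 and WT3, and no marker was at 0 in a group. Of 17 tested 3 rose (Csf1r, Mrc1 and Cx3cr1; 1.64% of all tested genes rose) and 14 did not pass, with 12 positive and 5 negative log2 fold changes. At an unadjusted p below 0.05, 11 were higher and 2 lower (11.6% and 10.4% of all). DESeq2 called 11 higher and 2 lower (6.51% and 5.24% of all). Fcgr1 (0.735 ± 0.260 CPM in KO and 2.20 ± 0.470 CPM in WT) and Ccr2 (3.14 ± 1.37 and 9.77 ± 7.51 CPM) lay below in every KO library and did not pass edgeR's test (SD, n = 3 each). The rises numbered 1 without WT1 or WT2 and 0 without WT3. Csf1r, which encodes the M-CSF receptor, was at 26.7, 8.08 and 5.38 CPM in KO and 1.23, 0.948 and 0.840 CPM in WT. Csf1r was highest in KO1. Without KO1 the log2 fold changes were 3.02 for Cd74 and 3.23 for H2-Aa. Csf1r was still higher in KO2 and KO3 than in WT, so that fit cannot show the part of macrophages.

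The 14 dendritic cell markers summed to 200 to 260 CPM in KO and 225 to 254 CPM in WT, a sum made up mostly of Bst2 and Tcf4, which other blood cells express. Of 8 tested 0 were called by edgeR or limma-voom. An unadjusted p below 0.05 was found for 2 higher and 1 lower (11.6% and 10.4% of all genes). DESeq2 called 3 higher and 1 lower (6.51% and 5.24% of all). Every KO library lay above every WT library in 5 of the 14, some too rare to be tested, and below in 1. Over all tested genes these shares were 13.6% and 14.4%. Itgax was at 1.98, 0.762 and 1.24 CPM in KO and 0.158, 0 and 0 CPM in WT (edgeR adjusted p = 0.0961). Ccr7, of mature dendritic cells and lymphocytes, was at 2.75 ± 1.26 CPM in KO and 0.168 ± 0.219 CPM in WT (SD, n = 3 each, edgeR adjusted p = 0.0978), and Flt3 at 1.75 ± 0.965 and 5.43 ± 1.48 CPM (edgeR adjusted p = 0.126). Siglech and Cd209a had 0 counts in the WT libraries and at most 0.218 CPM in a KO library. The part of B cells, macrophages or dendritic cells in the class II levels was not tested.

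**Figure D5:**
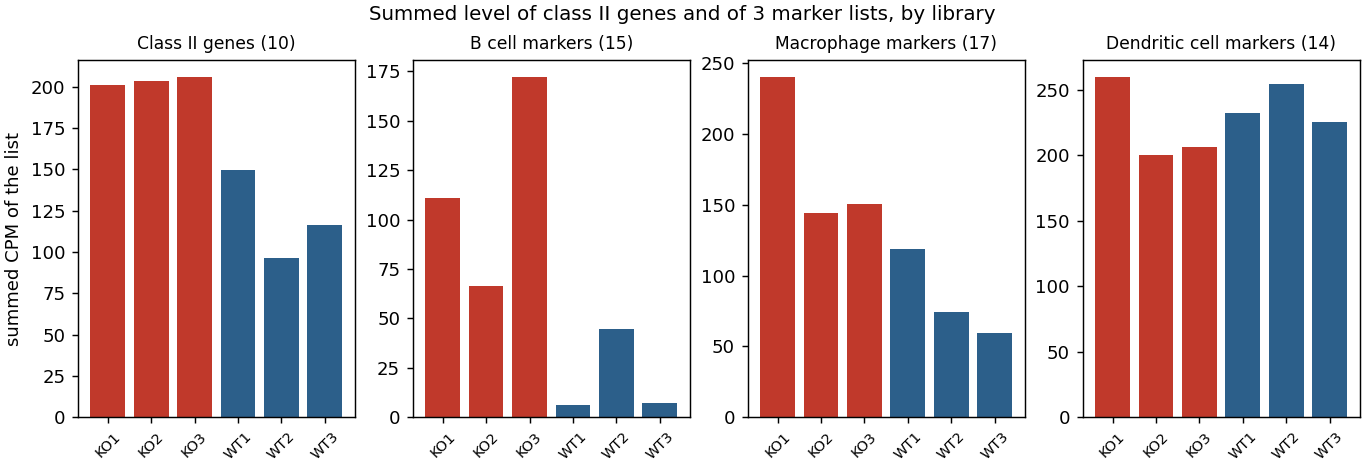
Summed CPM, by library, of the 10 class II genes and of 3 marker lists, KO libraries left of WT libraries, each panel with its own axis from 0. The class II sum is 201 to 206 CPM over the KO libraries. The B cell sum there, mostly Ighm and Igkc, is 66.4 to 172 CPM, and the macrophage sum 144 to 240 CPM.

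Of markers of cells that do not normally carry class II in the mouse, the 13 T and NK cell markers summed to 747 to 1054 CPM in KO and 705 to 858 CPM in WT, mostly Nkg7. Of 12 tested 5 rose, where 1.64% of all tested genes were called higher, among them the T cell genes Cd3d, Cd3e and Trbc1, at 2.26 ± 1.22, 2.14 ± 1.00 and 2.17 ± 1.23 CPM in KO against 0.132 ± 0.0608, 0.0264 ± 0.0458 and 0.0574 ± 0.0681 CPM in WT (SD, n = 3 each). The rises numbered 0 without KO1, KO3 or WT3, 2 without WT1 and 1 without WT2, and Cd4 and Ncr1 had 0 counts in the WT libraries. At an unadjusted p below 0.05, 9 were higher and 1 lower (11.6% and 10.4% of all), and DESeq2 called 8 higher (6.51% of all). The NK marker Klrb1c was at 0.859 ± 0.306 CPM in KO and 3.08 ± 2.67 CPM in WT (SD, n = 3 each), overlapped and did not pass. The 12 erythroid markers summed to 8090 to 27634 CPM in KO and 2734 to 11125 CPM in WT, with 0 of 12 called by edgeR or limma-voom. Of these, 8 were higher at an unadjusted p below 0.05 (11.6% of all genes) and 1 by DESeq2 (6.51% of all). With the mean erythroid level as a covariate, Cd74 and H2-Aa stayed past edgeR's test (adjusted p = 0.0132 and 0.0454), and H2-Eb1 did not (adjusted p = 0.0517). The 12 neutrophil markers summed to 18.1 to 238 CPM in KO and 117 to 812 CPM in WT, with 0 of 11 tested called by edgeR or limma-voom. Of these, 4 were lower at an unadjusted p below 0.05 (10.4% of all genes). DESeq2 called 1 higher and 2 lower (6.51% and 5.24% of all). The log2 fold change was negative in 7 of the 11 and positive in 4 (Mmp8, Mmp9, Retnlg and Cxcr2), whose groups overlapped. Every KO library lay below every WT library in 3 of the 12 and above in 0 (14.4% and 13.6% of all tested genes). Among the 3 was Ngp, a granule protein gene of maturing neutrophils, at 5.96, 0.0871 and 0.897 CPM in KO and 290, 55.9 and 41.5 CPM in WT (edgeR adjusted p = 0.0653).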

How the data were processed

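The authors deposited 1 table of raw counts of reads per gene symbol, 1 column for each library. The submitters' processing notes name featureCounts, Subread 2.0.1, STAR 2.7.9a and fastp 0.23.1. Genome build, annotation, strand setting and handling of multi-mapping reads: not given in the sources used here. Per the labels' protocols, cDNA was amplified by a SMARTer kit before Nextera XT library preparation, with no molecular identifiers, so limits for a count of 0 cover counting error only, while intervals of fold changes come from the spread between libraries. All 6 library columns were used.

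Counts were filtered with edgeR's filterByExpr (minimum count 10, minimum total 15), scaled by TMM and fitted with edgeR 4.0.16 (R 4.3.3, quasi-likelihood F test, robust, no covariate). P-values were Benjamini-Hochberg adjusted over all 15232 genes, with a threshold of 0.05. The SE is the size of the log2 fold change over the root of F. The biological coefficient of variation was 0.323. Replicate pairs differed beyond sampling noise (chi-square per degree of freedom 35.4 to 126). A limit for 0 counts is 3 counts per library. Log2 CPM profiles used a prior count of 2. Alternatives used DESeq2 1.42.0, limma 3.58.1, other scalings and filters. The code was tested on simulated counts.

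Genes named were the 10 members, Slc6a6, up to 5 called genes of each pathway list (or the 2 with the smallest p and a mean of at least 1 CPM), the 3 with the smallest p of each marker list at that level, and the 5 genes most like Cd74. Other genes were named after their values were seen. The members and lists were chosen with earlier results of these data known. The values of 1 B cell marker are not reported here.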

Additional observations from a re-analysis of the deposited data

How the results depend on the processing

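With all 6 libraries edgeR called 250 genes higher and 293 lower in KO, and 3 of the 10 class II genes higher. DESeq2 called 1158 and 932 genes and 5 class II genes, H2-Ab1 and Ciita being the additional ones (adjusted p = 0.00256 and 0.0270). An erythroid covariate gave 125 and 85 genes. Same-numbered libraries had correlations of their deviations of 0.06, -0.14 and -0.07, and differently numbered ones of -0.13 to 0.19. No pairing by replicate number was seen, but 3 libraries in each group cannot exclude it. With the replicate number as a block 8 genes were higher, 20 lower and 1 class II gene, Cd74, higher. Without 1 library 13 to 371 genes were higher and 29 to 247 lower (13 and 29 without WT3), and 1 to 3 class II genes were higher (Cd74 alone without KO1, KO3 or WT3). The cause of these shifts was not tested, beyond the fewer libraries of the last fits.

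The sign of H2-Aa, H2-Ab1, H2-Eb1, Cd74, Ciita and H2-DMa was the same under all 15 alternatives. It turned for genes near 0: without 1 library the log2 fold change ran from -0.13 to 0.16 for H2-DMb1, -0.40 to 0.75 for H2-DMb2, -0.050 (without WT2) to 0.34 for H2-Oa and -0.31 to 0.38 for H2-Ob, and for H2-Ob it was 0.011 with the replicate block and 0.64 with the erythroid covariate. The log2 difference of the H2-DMb2 to H2-DMb1 ratio ran from -0.32 to 1.09, and that of H2-Oa to H2-Ob from -0.0023 (without WT1) to 0.50. The ratios of H2-Aa, Cd74 and H2-Eb1 to H2-Ab1 stayed above 0 (2.33 to 2.88, 2.27 to 2.55 and 1.04 to 1.42). Other scalings moved the median of all genes by at most 0.02 on the log2 scale. Depth limits Ciita and H2-DMb2, with 7 to 130 and 7 to 72 counts per library.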

Other observations

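Genes of the MHC class I route, which shows peptides from the cytosol to CD8+ T cells, each differed less than Cd74 and H2-Aa. As a list, their median log2 fold change was about as high as that of the 10 class II genes. Of 13 tested 1 rose, 1 fell and 11 did not pass edgeR's test, while 12 of 13 had a positive log2 fold change (median 0.43). Over all tested genes edgeR called 1.64% higher and 1.92% lower. At an unadjusted p below 0.05, 10 were higher and 1 lower (11.6% and 10.4% of all). In 7 every KO library lay above every WT library (13.6% of all). DESeq2 called 6 higher and 1 lower (6.51% and 5.24% of all), and edgeR called 3 higher with no filter or with a filter of 1 CPM. H2-T23, a non-classical class I gene, rose to 203 ± 34.0 CPM in KO, against 105 ± 14.7 CPM in WT (SD, n = 3 each, edgeR adjusted p = 0.0279). Psmb10, a catalytic subunit of the immunoproteasome, fell to 126 ± 8.04 CPM in KO, against 194 ± 8.60 CPM in WT (edgeR adjusted p = 0.0171). The other immunoproteasome genes Psmb8 and Psmb9 had log2 fold changes of 0.43 and 0.83 and did not pass (edgeR adjusted p = 0.0954 and 0.0593). Nlrc5, the class I counterpart of Ciita, was at 34.1, 25.0 and 16.8 CPM in KO and 17.3, 8.22 and 13.4 CPM in WT, with overlap.

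Of 8 genes for ligands that antigen-presenting cells show to T cells 7 were tested and 0 called by edgeR or limma-voom. Of these, 1 was lower at an unadjusted p below 0.05 (10.4% of all genes). DESeq2 called 1 higher and 1 lower (6.51% and 5.24% of all). The log2 fold change was positive in 5 of the 7 and negative in 2, with a median of 0.31. Every KO library lay above every WT library in 1 of the 8 and below in 2 (13.6% and 14.4% of all tested genes). The 1 above was Cd40, with 18, 8 and 5 counts in the KO libraries and 0 in the WT libraries, too rare to be tested. Pdcd1lg2 (PD-L2) was at 1.82, 1.29 and 1.43 CPM in KO and 8.02, 3.27 and 4.38 CPM in WT, below in every KO library (edgeR adjusted p = 0.0633). Cd80 was at 1.94, 0.588 and 4.53 CPM in KO and 7.23, 6.66 and 4.73 CPM in WT, also below in every KO library (edgeR adjusted p = 0.269).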
